A study of Rattus norvegicus with 21 samples.

Results

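A set of 8 genes was followed across the rat insulinoma line INS-1, a model of the pancreatic beta cell. Their products are, bind or control small GTPases, Rac among these, or bind actin. The genes were Cyria, Elmod1, Tiam1, Arhgdib, Cdc42, Coro1a, Cotl1 and Lcp1. They were chosen by name, with earlier results of these data known, as 8 of the 13438 genes measured, and each was read, among the probe sets annotated to that symbol alone, from the one brightest on average over the 21 arrays. RNA was measured on Affymetrix arrays, with 3 arrays in each of 7 groups. pCTSH#1, written pCTSH1 in the sample titles, is 1 clone of the line with a stable plasmid for the lysosomal protease cathepsin H (CTSH), and pcDNA cells carry the empty vector. Both received IL-1β (recombinant, mouse) at 150 pg/ml together with IFNγ (recombinant, rat) at 5 ng/ml for 0, 6 or 16 h, and INS1 stands for untransfected cells at 0 h. No group was kept 6 or 16 h without cytokines, so the cytokines and the time in culture cannot be told apart in a change from 0 h. The differences between the lines set 1 clone against the empty vector cells. In them the effect of cathepsin H cannot be told apart from other properties of that clone or of the pcDNA cells. As INS1 was measured at 0 h only, a difference at 6 or 16 h cannot be assigned to either line.

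Rac and its relative Cdc42 switch between a GTP-bound active form and a GDP-bound resting form. Exchange factors such as Tiam1 load GTP, GTPase-activating proteins speed its hydrolysis, and dissociation inhibitors such as Arhgdib hold the resting form in the cytosol. Active Rac engages the WAVE complex, which turns on Arp2/3-driven branching of actin filaments, and coronins, coactosin and plastins bind the filaments that result. In beta cells the actin web below the plasma membrane takes part in the release of insulin granules.

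Values are log2 probe set intensities as deposited, background is the highest nonspecific control probe set of an array, and it lay between 3.88 and 4.17. Array medians were 4.88 to 5.08, and 61.4% to 71.0% of probe sets lay above background. The 9 beta-cell markers measured, of 15 listed, were above background on every array. Of 18 leukocyte markers measured, between 3 and 6 were above background on all arrays of a group. Cd68, Laptm5 and Ptpn6 were above it on each of the 21 arrays. Cd3e, Cd3g, Cd79b, Itgam, Csf1r, Vav1, Nkg7 and Adgre1 were above it on none. Ctsh itself read near background, with means of 4.0, 4.07 and 4.45 in pCTSH#1 and of 3.90, 3.67 and 3.79 in pcDNA at 0, 6 and 16 h. The pCTSH#1 arrays at 16 h read 5.08, 4.15 and 4.11, so that mean rests mainly on replicate 1. Ctsh passed no comparison between the lines, and the sources used here do not say whether its probes match the transfected sequence, so the labels were not checked by it.

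The genes fell into 4 patterns. Cyria and Elmod1 were higher at 16 h than at 0 h, each mainly in a different line: Cyria in pcDNA and Elmod1 in pCTSH#1. Tiam1, Coro1a and Cotl1 were lower at 16 h in both lines, Cotl1 being higher in pCTSH#1 at all 3 times. Lcp1 was slightly higher and Cdc42 slightly lower at 16 h in both lines, the Cdc42 calls depending on the scaling, and Arhgdib stayed near background.

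Marker genes of the cells moved at the same time. At 16 h against 0 h, 7 of the 9 beta-cell markers were lower in pCTSH#1 and 9 of 9 in pcDNA by limma, where 30.1% and 29.5% of all 13438 genes were. The summed linear intensity of these 9 was 45853 to 47903 at 16 h and 56070 to 57225 at 0 h in pCTSH#1, and 41018 to 43356 at 16 h and 54080 to 56302 at 0 h in pcDNA. Bright markers such as Ins1 carry most of that sum, while the dimmer Nkx6-1 and Pdx1 fell further. From 0 to 16 h mean Nkx6-1 went from 9.04 to 5.26 in pCTSH#1 and from 8.46 to 5.45 in pcDNA. Mean Pdx1 went from 9.69 to 7.96 in pCTSH#1 and from 9.73 to 7.74 in pcDNA. Of 5 markers of other islet endocrine cells 1, the glucagon gene Gcg, was lower in both lines, and the sum of the 5 was 147 to 177 at 16 h and 478 to 579 at 0 h in pCTSH#1, and 110 to 144 at 16 h and 391 to 496 at 0 h in pcDNA. Of 8 fibroblast markers 2, Pdgfra and Thy1, were lower in both lines, and the sum of the 8 was 262 to 288 at 16 h and 425 to 483 at 0 h in pCTSH#1, and 249 to 266 at 16 h and 424 to 457 at 0 h in pcDNA. Of 18 leukocyte markers 4 were higher in pCTSH#1 and 2 in pcDNA, and 0 were lower, beside 25.2% and 25.8% higher of all genes. Most of the 18 were at background at 0 h in both lines, where a fall could not be read. The part of these shifts in the changes of the 8 genes at 16 h was not tested.

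**Figure D1:**
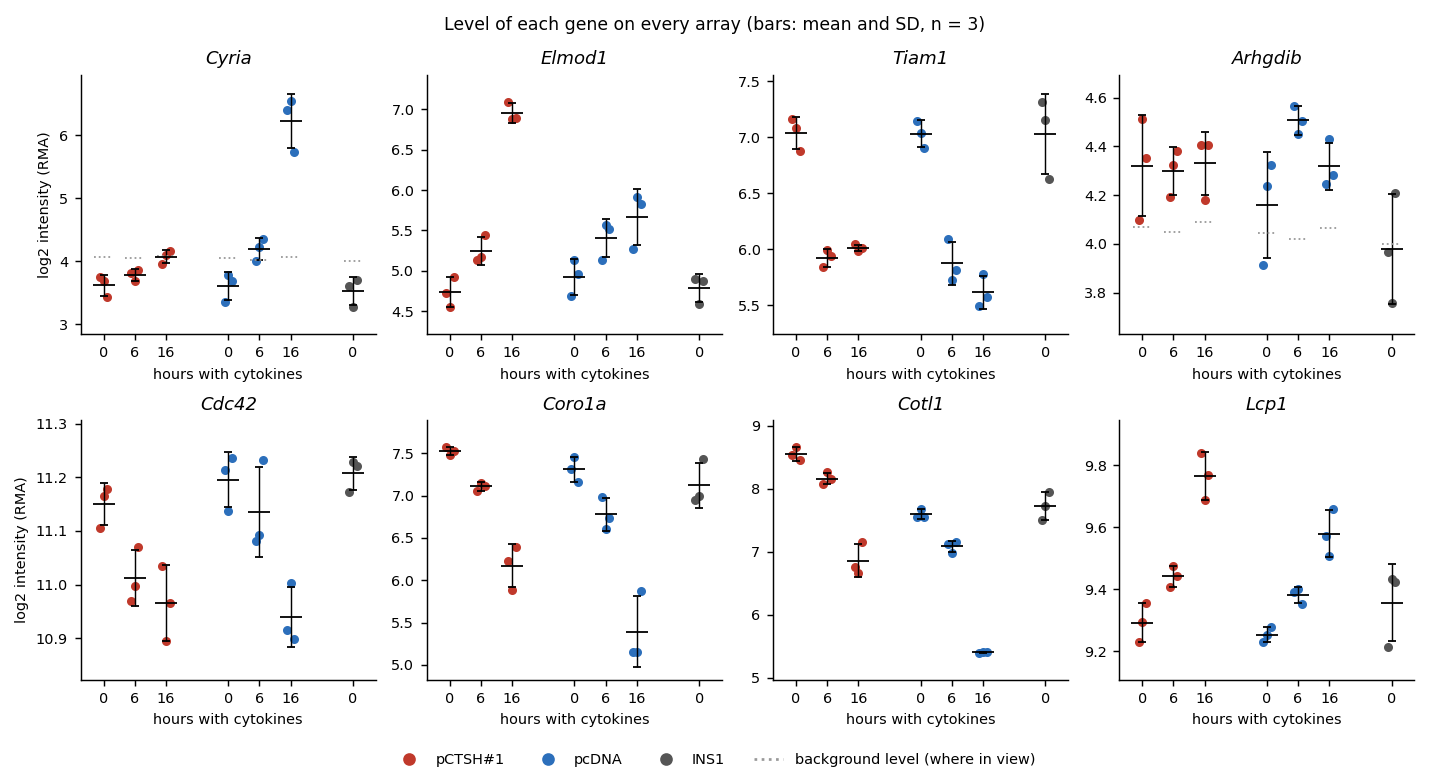
Log2 intensity of the 8 genes (one panel each, with its own vertical range) on every array, by hours with cytokines, in pCTSH#1 (red), pcDNA (blue) and INS1 (grey). Bars give the mean and SD of 3 arrays, and dotted lines give the mean background of a group. Cyria stands clear of background in pcDNA at 16 h (5.74 to 6.54), and Elmod1 is highest in pCTSH#1 at 16 h (6.88 to 7.09).

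Cyria, formerly Fam49a, encodes a protein that binds active Rac1 and, as shown in mammalian cells, restrains signalling from Rac to the WAVE complex. In pCTSH#1 its level read 3.75, 3.68 and 3.43 on the 3 arrays at 0 h, 3.81, 3.68 and 3.86 at 6 h and 3.96, 4.10 and 4.17 at 16 h. In pcDNA it read 3.36, 3.78 and 3.69 at 0 h, 4.01, 4.23 and 4.36 at 6 h and 6.40, 6.54 and 5.74 at 16 h. INS1 arrays read 3.60, 3.27 and 3.70. The 3 pcDNA arrays at 16 h stood above all others, and 15 of the 21 arrays, among them every array at 0 h, were at background.

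At 16 h Cyria was at least 4.28-fold lower in pCTSH#1 than in pcDNA (limma, log2 difference -2.15 ± 0.17, SE, adjusted p = 1.85e-07). Against 0 h it was at least 4.53-fold higher at 16 h in pcDNA (adjusted p = 7.16e-11). At 6 h in pcDNA it passed too (at least 1.11-fold higher, adjusted p = 0.0108), a call lost without replicate 1 at 0 h (0.0711) or replicate 3 at 6 h (0.0557). In pCTSH#1 the 16 h level passed the test against 0 h (0.45 ± 0.17, adjusted p = 0.0338), but both groups lay at background, so no fold is given, and leaving out any 1 of 4 arrays (replicates 2 and 3 of either time) ended the call. The responses of the lines at 16 h differed by a fitted -2.16 ± 0.24 (adjusted p = 0.000105), which is not a size because 3 of the 4 groups in it were at background. In these bulk samples, fewer cells with a transcript and less of it per cell cannot be told apart.

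The order of Cyria levels ran from pcDNA at 16 h to pcDNA at 6 h, pCTSH#1 at 16 h, pCTSH#1 at 6 h and then the 0 h groups. Beyond the first place, only pCTSH#1 at 16 h and at 6 h were neighbours with no overlap between their arrays. Within pcDNA at 16 h, replicate 3 was the lowest array. The paralog Cyrib, a Rac1-binding protein of the same family, averaged a log2 level of 10.42 ± 0.10 in pCTSH#1 and 10.35 ± 0.10 in pcDNA at 16 h (SD, n = 3 each; limma adjusted p = 0.731), and its 16 h level passed against 0 h in neither pCTSH#1 (0.245) nor pcDNA (0.0967). These values are from the brighter of its probe sets. When its probe sets were averaged, the direction against 0 h turned, and the 16 h level passed as lower in both lines. The genes most alike to Cyria over the 21 arrays were Ptpro (Pearson r = 0.924), Ano3 (0.914) and Wdr3 (0.899), a description over arrays that share groups and a normalization.

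Elmod1 encodes an ELMO-domain protein with GTPase-activating function toward ARF-family GTPases in mammalian cells, and it stands in the list of GTPase-activating proteins for that reason rather than for acting on Rac. In pCTSH#1 its level was 4.73, 4.56 and 4.93 at 0 h, 5.14, 5.17 and 5.45 at 6 h and 7.09, 6.88 and 6.89 at 16 h. In pcDNA it was 4.69, 5.13 and 4.96 at 0 h, 5.14, 5.57 and 5.52 at 6 h and 5.27, 5.91 and 5.82 at 16 h. INS1 arrays read 4.90, 4.59 and 4.88. All arrays were above background, the lines overlapped at 0 and 6 h, and the 3 pCTSH#1 arrays at 16 h lay above every other array.

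Elmod1 was 2.44-fold higher in pCTSH#1 than in pcDNA at 16 h (limma, 1.29 ± 0.16, SE, adjusted p = 8.72e-05). From 0 to 16 h it rose 4.64-fold in pCTSH#1 (2.21 ± 0.16, adjusted p = 5.63e-10), against 1.67-fold in pcDNA (0.74 ± 0.16, adjusted p = 0.000734). The difference between these responses was itself past the threshold, at 1.47 ± 0.23 (adjusted p = 0.00663), and over the 18 alternatives tried for it the adjusted p lay between 0.00168 and 0.0249. At 6 h the responses differed by 0.03 ± 0.23 (adjusted p = 1.00), with a 95% interval from -0.46 to 0.51. The rises at 6 h, of 0.51 in pCTSH#1 (adjusted p = 0.0242) and 0.48 in pcDNA (0.0297), were each lost on leaving out some single arrays: replicates 1 or 2 at 0 h or 3 at 6 h in pCTSH#1 (0.0608 to 0.121), and replicates 1 or 3 at 0 h or 2 or 3 at 6 h in pcDNA (0.0568 to 0.151).

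By level, pCTSH#1 at 16 h stood first for Elmod1, apart from pcDNA at 16 h. The next 3 groups (pcDNA at 16 h, pcDNA at 6 h, pCTSH#1 at 6 h) overlapped with their neighbours, as did the 3 groups at 0 h among themselves. The gene most alike to Elmod1 was Rac2 (Pearson r = 0.944 over 21 arrays), followed by Ccl5, a chemokine (0.936), and Armt1 (0.925). Rac2 is the Rac best known from blood cells, and the title of the series names it. Its log2 level at 16 h was 7.33, 7.42 and 7.44 in pCTSH#1, against 5.97, 6.20 and 5.95 in pcDNA, with all pCTSH#1 arrays above all pcDNA arrays. The Rac2 difference was 2.56-fold (limma, 1.36 ± 0.19, adjusted p = 0.000231). Its responses at 16 h differed by a fitted 1.46 ± 0.27 (adjusted p = 0.0217), with both 0 h groups near background.

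**Figure D2:**
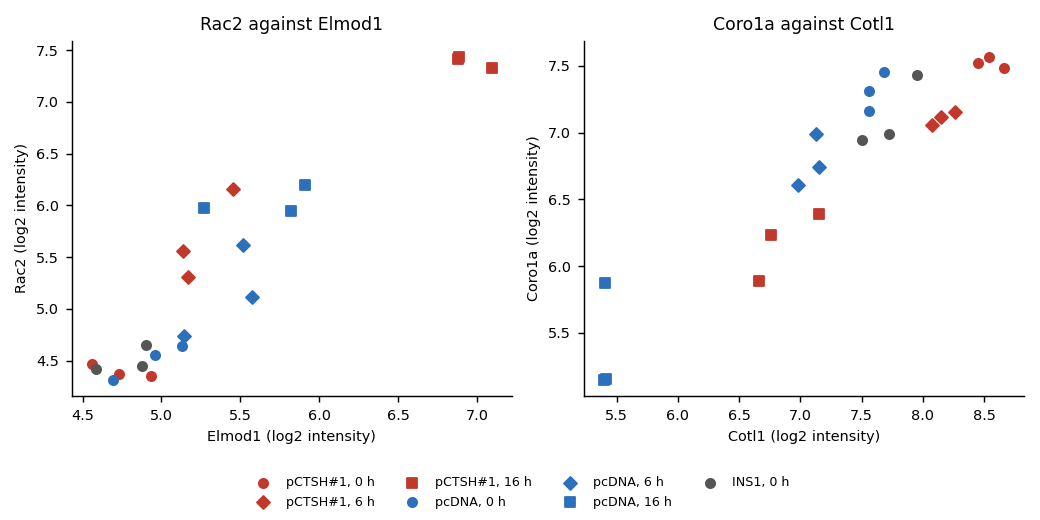
Log2 intensity of Rac2 against Elmod1 (left) and of Coro1a against Cotl1 (right) on the 21 arrays, 1 point per array, with colours for the lines and shapes for the hours. On the left the 3 pCTSH#1 arrays at 16 h sit alone at the upper right (Elmod1 6.88 or more), and on the right the 3 pcDNA arrays at 16 h sit at the left edge (Cotl1 5.39 to 5.41).

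Promoter sequences were at hand for 4 of the 8 genes (RefSeq, GRCr8): Tiam1, Cdc42, Coro1a and Cotl1. These are also the 4 genes that passed as lower at 16 h than at 0 h in both lines. For Cdc42 that depended on the scaling. The 4 promoters are printed as the 250 bases before the annotated start, 5′ to 3′ on the gene's strand, with matches to the 7 motifs searched in capitals.
Tiam1 chr11:42646083-42646332, minus strand: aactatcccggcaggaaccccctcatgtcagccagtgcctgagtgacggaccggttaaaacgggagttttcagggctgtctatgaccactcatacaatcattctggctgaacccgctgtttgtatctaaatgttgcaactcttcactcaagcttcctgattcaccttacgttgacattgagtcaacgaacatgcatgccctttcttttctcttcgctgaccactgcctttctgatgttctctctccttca
Cdc42 chr5:154876512-154876761, minus strand: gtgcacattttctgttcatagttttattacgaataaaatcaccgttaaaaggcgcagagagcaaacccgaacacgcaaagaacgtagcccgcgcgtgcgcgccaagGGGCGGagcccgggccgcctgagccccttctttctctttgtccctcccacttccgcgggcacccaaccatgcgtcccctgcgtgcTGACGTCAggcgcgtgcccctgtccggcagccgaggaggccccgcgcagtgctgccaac
Coro1a chr1:190731104-190731353, minus strand: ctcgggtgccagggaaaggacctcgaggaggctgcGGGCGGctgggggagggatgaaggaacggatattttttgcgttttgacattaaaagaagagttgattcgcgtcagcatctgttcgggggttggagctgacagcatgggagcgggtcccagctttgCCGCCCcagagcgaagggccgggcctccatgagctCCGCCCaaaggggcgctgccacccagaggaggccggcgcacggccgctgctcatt
Cotl1 chr19:64814630-64814879, minus strand: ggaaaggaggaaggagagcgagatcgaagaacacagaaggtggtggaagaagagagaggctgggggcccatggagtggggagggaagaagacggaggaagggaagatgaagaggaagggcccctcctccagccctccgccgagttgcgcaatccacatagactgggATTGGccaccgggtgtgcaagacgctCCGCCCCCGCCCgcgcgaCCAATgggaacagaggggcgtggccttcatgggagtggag
Both strands were searched for the GC box (GGGCGG), the CCAAT box (CCAAT), the cAMP response element (TGACGTCA), the TATA box (TATAAA), the STAT-type GAS element (TTCNNNGAA), the interferon response core (GAAA, any 2 bases, GAAA) and the kB element, given by name alone. The Coro1a window held 3 GC boxes, starting 215, 90 and 55 bases before the start. The Cotl1 window held 2 adjoining GC boxes, at 58 and 52 bases, and 2 CCAAT boxes, at 84 and 40 bases. The Tiam1 window held none of the 7, the Cdc42 window held 1 GC box, at 144 bases, and 1 cAMP response element, at 59 bases, and the GAS, interferon core and kB letters were in none of the 4 windows. Of 33469 promoters, 30.5% held a GC box, 34.0% a CCAAT box, 1.59% a cAMP response element, 12.9% a TATA box, 7.67% a GAS element, 3.41% the interferon core and 3.54% a kB element. The shares of G and C were 48% in Tiam1, 62% in Cdc42, 63.2% in Coro1a and 62.8% in Cotl1, against a median of 51.2% over all promoters.

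Tiam1, an exchange factor that activates Rac1, was lower at 6 h and at 16 h than at 0 h in both lines. In pCTSH#1 its level was 7.16, 7.08 and 6.88 at 0 h, 5.84, 5.99 and 5.94 at 6 h and 6.04, 5.99 and 6.01 at 16 h. In pcDNA it was 7.15, 7.03 and 6.91 at 0 h, 6.09, 5.72 and 5.81 at 6 h and 5.49, 5.78 and 5.57 at 16 h. INS1 arrays read 7.31, 7.15 and 6.63, the last below every other 0 h array. In each line no cytokine-treated array reached the 0 h arrays.

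The fall of Tiam1 from 0 to 6 h was 2.17-fold in pCTSH#1 (limma, -1.12 ± 0.14, SE, adjusted p = 3.05e-06), against 2.23-fold in pcDNA (-1.15 ± 0.14, adjusted p = 1.61e-06). From 0 to 16 h it was 2.04-fold in pCTSH#1 (adjusted p = 3.06e-06) and 2.67-fold in pcDNA (adjusted p = 3.62e-08). Between 6 and 16 h neither line passed (adjusted p = 0.671 in pCTSH#1 and 0.153 in pcDNA). At 16 h the 3 pCTSH#1 arrays lay above the 3 pcDNA arrays, yet the difference of 0.40 ± 0.14 did not pass (adjusted p = 0.137). With the mean of all 4 Tiam1 probe sets in place of the brightest, that difference passed (0.31, adjusted p = 0.0101). In the same setting the fall from 0 to 16 h was far smaller, at -0.20 in pCTSH#1 (adjusted p = 0.0201) and -0.44 in pcDNA (1.66e-05), and from 6 to 16 h pCTSH#1 passed as higher (0.18, 0.0443). From 0 to 6 h it was -0.38 in pCTSH#1 (0.000251) and -0.35 in pcDNA (0.000444). Averaging takes in probe sets that were at background in most groups, where a fall cannot be read.

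Of the other Tiam1 probe sets, the next brightest averaged 4.64 ± 0.20 in pCTSH#1 and 4.16 ± 0.10 in pcDNA at 16 h, against 4.82 ± 0.30 in pCTSH#1 and 4.70 ± 0.15 in pcDNA at 0 h (SD, n = 3 each). Its fall by 16 h passed in pcDNA (-0.54, limma adjusted p = 0.00206) but not in pCTSH#1 (-0.18, 0.321). The remaining 2 were at background in most groups, and 1 of them passed in the other direction in pCTSH#1 at 16 h (0.41, adjusted p = 0.0121; at least 1.14-fold against background). In level, the 3 groups at 0 h overlapped at the top, and the 4 treated groups overlapped with their neighbours below, with pcDNA at 16 h last. The genes most alike to Tiam1 over the 21 arrays were Ssbp2 (r = 0.966), Nap1l5 (0.961) and Dcun1d2 (0.950).

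Arhgdib, the dissociation inhibitor known mainly from blood cells, read 3.76 to 4.57 over all 21 arrays, and every group mean was less than 0.5 above background. In pCTSH#1 it averaged 4.32 ± 0.21 at 0 h, 4.30 ± 0.10 at 6 h and 4.33 ± 0.13 at 16 h (SD, n = 3). In pcDNA it averaged 4.16 ± 0.22 at 0 h, 4.51 ± 0.06 at 6 h and 4.32 ± 0.10 at 16 h, and in INS1 3.98 ± 0.23. The group means spanned 0.53, and in the order of groups only pcDNA at 6 h, the first, stood apart from its neighbour. The higher level in pcDNA at 6 h than at 0 h passed narrowly (0.35 ± 0.13, adjusted p = 0.0429), and leaving out any array but replicate 3 at 0 h ended the call (0.0534 to 0.242), as did eBayes with trend and robust settings (0.0723). No gene followed it closely; Eef1e1 was the most alike (r = 0.780).

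Cdc42, the GTPase that acts through WASP proteins and is linked to insulin secretion in beta cells, was read from a bright probe set with a narrow range, 10.89 to 11.24. It averaged 11.15 ± 0.04 at 0 h, 11.01 ± 0.05 at 6 h and 10.97 ± 0.07 at 16 h in pCTSH#1, and 11.20 ± 0.05, 11.14 ± 0.08 and 10.94 ± 0.06 at the same times in pcDNA (SD, n = 3 each). INS1 arrays averaged 11.21 ± 0.03. In each line the 16 h arrays lay below the 0 h arrays, by a small amount, and the lines overlapped at 16 h.

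The lower level of Cdc42 at 16 h was -0.18 ± 0.07 in pCTSH#1 (limma adjusted p = 0.0361), against -0.26 ± 0.07 in pcDNA (adjusted p = 0.00453). Leaving out replicate 2 or 3 of either time ended the call in pCTSH#1 (adjusted p = 0.0693 to 0.141). Both calls also depended on the scaling: with arrays centred on their medians the values were -0.10 (adjusted p = 0.342) and -0.16 (0.108), and with cyclic loess -0.08 (0.404) and -0.14 (0.104). The second Cdc42 probe set gave -0.28 in pCTSH#1 (adjusted p = 0.0123) and -0.25 in pcDNA (0.0211) at 16 h against 0 h. The dimmest gave -0.28 (0.276) and -0.68 (0.00766). In the order of levels, the first 4 groups (INS1, pcDNA and pCTSH#1 at 0 h, pcDNA at 6 h) overlapped with their neighbours, and so did the last 3. Ccdc125 was the gene most alike to Cdc42 (r = 0.899).

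Coro1a encodes coronin 1A, which binds actin filaments and the Arp2/3 complex and is best known from leukocytes. In pCTSH#1 its level was 7.57, 7.48 and 7.53 at 0 h, 7.06, 7.15 and 7.12 at 6 h and 6.23, 5.89 and 6.39 at 16 h. In pcDNA it was 7.31, 7.46 and 7.16 at 0 h, 6.99, 6.61 and 6.74 at 6 h and 5.15, 5.16 and 5.88 at 16 h. INS1 arrays read 6.94, 6.99 and 7.43. In each line the 6 h arrays lay below the 0 h arrays, and the 16 h arrays lay below the 6 h arrays. At each time the 3 pCTSH#1 arrays lay above the 3 pcDNA arrays, only just so at 16 h, where replicate 3 of pcDNA stood above its fellows.

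From 0 to 16 h Coro1a fell 2.56-fold in pCTSH#1 (limma, -1.35 ± 0.17, SE, adjusted p = 1.30e-06), against 3.77-fold in pcDNA (-1.92 ± 0.17, adjusted p = 9.63e-09). At 6 h the change was -0.42 ± 0.17 in pCTSH#1 (adjusted p = 0.0853) and -0.53 ± 0.17 in pcDNA (0.0236), the call in pcDNA being lost with cyclic loess (0.113) and without replicates 1 or 2 at 0 h or 2 or 3 at 6 h (0.0565 to 0.104). The clone was 1.72-fold higher at 16 h (0.78 ± 0.17, adjusted p = 0.0130). That call was lost without pcDNA replicate 1 (0.0760) or 2 (0.0780) or without pCTSH#1 replicate 3 (0.0679) at 16 h. The responses at 16 h differed by 0.56 ± 0.24, which did not pass (adjusted p = 0.573; 95% interval 0.05 to 1.07).

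In level the groups of Coro1a stepped down from pCTSH#1 at 0 h through pcDNA and INS1 at 0 h, which overlapped, to pCTSH#1 and pcDNA at 6 h and then pCTSH#1 and pcDNA at 16 h. INS1 at 0 h also overlapped with pCTSH#1 at 6 h. Its relative Coro1b, a coronin of wider expression, went the other way: it rose by 16 h by 0.42 ± 0.07 in pCTSH#1 (limma adjusted p = 2.97e-05) and by 0.33 ± 0.07 in pcDNA (0.000381). Over the 21 arrays Coro1a and Cotl1, the next gene described, correlated at r = 0.931, the highest of the 28 pairs among the 8 genes. The genes most alike to Coro1a were Ttyh3 (r = 0.972), Nudt1 (0.972) and Dnaaf5 (0.971).

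Cotl1 encodes the coactosin-like protein, which binds actin filaments. In pCTSH#1 its level was 8.54, 8.66 and 8.45 at 0 h, 8.08, 8.26 and 8.15 at 6 h and 6.76, 6.66 and 7.15 at 16 h. In pcDNA it was 7.56, 7.68 and 7.56 at 0 h, 7.13, 6.98 and 7.15 at 6 h and 5.39, 5.41 and 5.40 at 16 h. INS1 arrays read 7.50, 7.73 and 7.95. At every time all pCTSH#1 arrays lay above all pcDNA arrays, and at 0 h they lay above the INS1 arrays too, while pcDNA and INS1 overlapped.

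Cotl1 was higher in pCTSH#1 than in pcDNA by 1.94-fold at 0 h (limma, 0.95 ± 0.12, SE, adjusted p = 8.87e-05), 2.11-fold at 6 h (1.08 ± 0.12, adjusted p = 1.32e-05) and 2.74-fold at 16 h (1.45 ± 0.12, adjusted p = 2.85e-07). Against INS1 at 0 h it was 1.77-fold higher in pCTSH#1 (0.83 ± 0.12, adjusted p = 0.000276), while pcDNA minus INS1 was -0.13 ± 0.12 (adjusted p = 1.00). All alternatives tried, leaving out each array among them, kept these 4 calls.

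From 0 to 16 h Cotl1 fell 3.24-fold in pCTSH#1 (limma, -1.69 ± 0.12, adjusted p = 2.25e-10), against 4.58-fold in pcDNA (-2.20 ± 0.12, adjusted p = 4.54e-12). From 0 to 6 h the fall was -0.39 in pCTSH#1 (adjusted p = 0.0171), which was lost with cyclic loess (0.109) and without replicate 2 at 0 h (0.0812) or replicate 1 at 6 h (0.0724), and -0.52 in pcDNA (0.00185). The responses at 16 h differed by 0.50 ± 0.17, which did not pass (adjusted p = 0.362; 95% interval 0.15 to 0.85). In the order of levels, INS1 overlapped with pcDNA at 0 h, pcDNA at 6 h overlapped with pCTSH#1 at 16 h, and the other neighbours stood apart. The genes most alike were Cux1 (r = 0.985), Selenop (0.982) and Polr2j (0.980).

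The measured genes next to each of the 8 on the chromosome (RefSeq, GRCr8) were read too, and are given first for the 3 that differed most between the lines. The 10 measured genes nearest to Cotl1 had a median difference, pCTSH#1 minus pcDNA, of 0.10 at 0 h (range -0.05 to 0.20) and of 0.06 at 16 h (-0.13 to 0.26), against 0.95 and 1.45 for Cotl1 itself. Around Elmod1 the 16 h median was -0.12 (-0.45 to 0.13), against 1.29 for Elmod1. Around Cyria it was -0.12 (-0.53 to 0.10), against -2.15 for Cyria. Around the other 5 genes the 16 h medians lay between -0.14 and 0.01, and single neighbours between -0.84 and 0.68. The neighbours are given as values, without a test.

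Lcp1, the gene of L-plastin, which bundles actin filaments and is best known from leukocytes, was clearly expressed, with levels of 9.21 to 9.84. In pCTSH#1 it read 9.23, 9.29 and 9.35 at 0 h, 9.41, 9.47 and 9.44 at 6 h and 9.84, 9.69 and 9.77 at 16 h. In pcDNA it read 9.23, 9.25 and 9.28 at 0 h, 9.39, 9.40 and 9.35 at 6 h and 9.57, 9.51 and 9.66 at 16 h. INS1 arrays read 9.21, 9.43 and 9.42. The arrays of each line stepped up from time to time without overlap, and at 16 h the pCTSH#1 arrays lay above the pcDNA arrays.

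Lcp1 was 1.39-fold higher at 16 h than at 0 h in pCTSH#1 (limma, 0.47 ± 0.08, SE, adjusted p = 2.15e-05), against 1.25-fold in pcDNA (0.33 ± 0.08, adjusted p = 0.00109). At 6 h the differences of 0.15 in pCTSH#1 (adjusted p = 0.171) and 0.13 in pcDNA (0.234) did not pass. With cyclic loess both passed, at 0.22 in pCTSH#1 (adjusted p = 0.0388) and 0.21 in pcDNA (0.0410). The lines at 16 h differed by 0.19 ± 0.08, which did not pass (adjusted p = 0.218; 95% interval 0.03 to 0.34). By level both 16 h groups came first, then both 6 h groups, and the 3 groups at 0 h overlapped, INS1 also with pcDNA at 6 h. Pls3, a plastin of solid tissues, passed none of the 13 comparisons, and at 16 h it averaged 10.03 ± 0.01 in pCTSH#1 and 9.96 ± 0.11 in pcDNA (SD, n = 3 each). The summed linear intensity of the 18 leukocyte markers was 455 to 503 at 16 h and 407 to 413 at 0 h in pCTSH#1, and 455 to 483 at 16 h and 407 to 429 at 0 h in pcDNA. Most of the 18 were at background at both times, and Ptpn6 was the brightest of them. Mean Cd68 went from 4.65 to 5.89 in pCTSH#1 and from 4.69 to 5.52 in pcDNA. The part of the summed markers in the Lcp1 change was not tested. Asah2 (r = 0.932), Snx15 (0.922) and Nup62 (0.917) were the genes most alike to Lcp1.

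**Figure D3:**
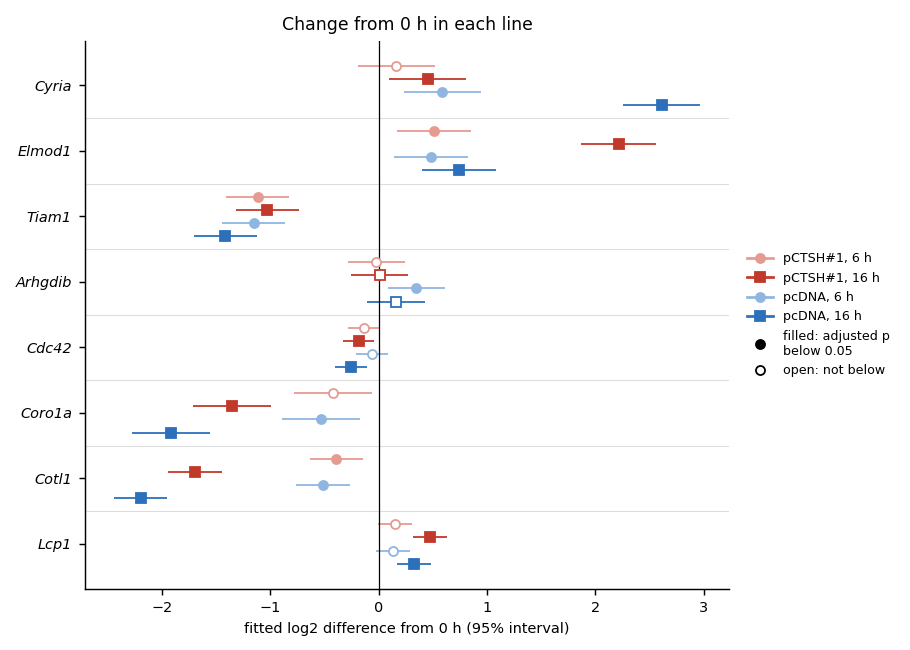
Fitted log2 difference of each gene from 0 h with its 95% interval, at 6 h (circles) and 16 h (squares) in pCTSH#1 (red, above) and pcDNA (blue, below). Filled symbols have a limma adjusted p below 0.05. At 16 h Elmod1 lies further right in pCTSH#1 (2.21) than in pcDNA (0.74), while Cyria lies further right in pcDNA, and Tiam1, Coro1a and Cotl1 lie left of 0 in both lines.

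Counted together, 3 of the 8 genes passed from 0 to 6 h in pCTSH#1, where 34.2% of all 13438 genes did: 1 was higher (13.0% of all genes were) and 2 were lower (21.3%). In pcDNA 6 of 8 passed, where 39.0% of all genes did: 3 were higher (14.5% of all genes) and 3 lower (24.6%). From 0 to 16 h, 7 of 8 passed in pCTSH#1, where 55.2% of all genes passed: 3 were higher (25.2%) and 4 lower (30.1%). In pcDNA 7 of 8 passed as well, where 55.3% of all genes did: 3 were higher (25.8%) and 4 lower (29.5%). From 6 to 16 h, 4 of 8 passed in pCTSH#1, where 49.2% of all genes did, and 5 of 8 in pcDNA, where 49.9% did. The members were chosen with results of these data known, so nothing is read from these counts about the 8 as a group. The median log2 difference of the 8 at 16 h against 0 h was -0.09 in pCTSH#1, against -0.01 over all genes, and -0.05 in pcDNA, against -0.00447 over all genes. The comparisons within a line share their 0 h arrays.

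Between the lines, 1 of the 8 (Cotl1) passed at 0 h, where 2.56% of all genes did, and 1 (Cotl1) at 6 h, where 3.99% did. At 16 h 4 of the 8 passed, where 5.28% of all genes did: Elmod1, Coro1a and Cotl1 were higher in pCTSH#1 (3.32% of all genes were) and Cyria was lower (1.96%). For the difference of responses, 2 of 8 passed at 16 h (Elmod1 and Cyria), where 0.275% of all genes did. At 6 h limma called 0 of 8, where 0.119% of all genes passed. With an unadjusted p below 0.05 it was also 0 of 8, and with trend and robust settings 0 of 8. Against INS1 at 0 h, 1 of 8 (Cotl1) passed in pCTSH#1, where 3.45% of all genes did. In pcDNA limma called 0 of 8 and 0% of all genes, and 0 of the 8 had an unadjusted p below 0.05. As the members were chosen with results of these data known, nothing is read from the counts between the lines either.

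**Figure D4:**
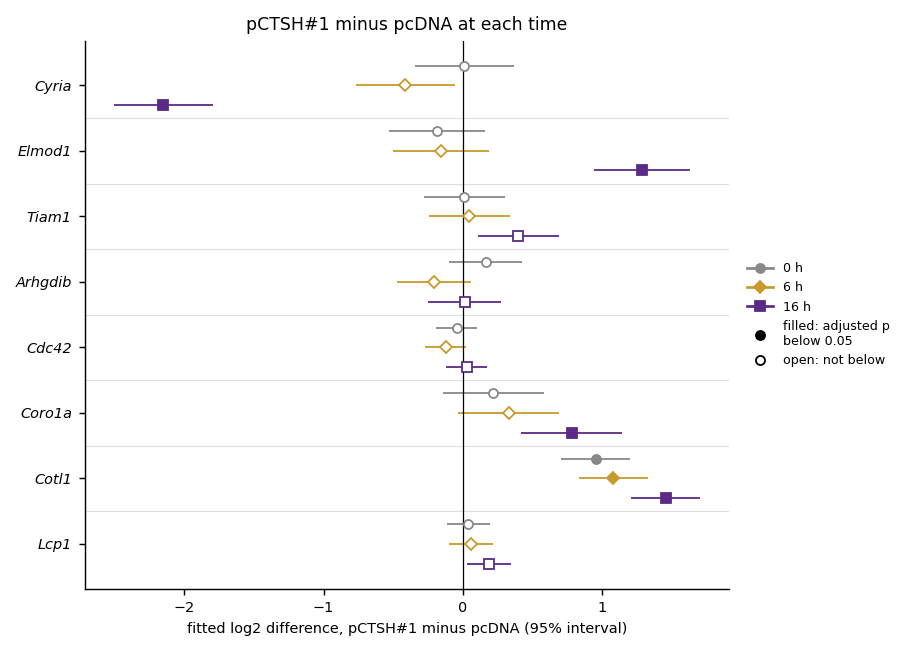
Fitted log2 difference, pCTSH#1 minus pcDNA, of each gene at 0 h (circles), 6 h (diamonds) and 16 h (squares) with its 95% interval. Filled symbols have a limma adjusted p below 0.05. Cotl1 is right of 0 at all 3 times (0.95, 1.08 and 1.45), while Cyria (-2.15), Elmod1 (1.29) and Coro1a (0.78) have filled symbols at 16 h only.

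The wider families moved in both directions between 0 and 16 h. Rac1, the target of Tiam1, rose by 0.46 ± 0.07 in pCTSH#1 (limma adjusted p = 1.05e-05) and by 0.41 ± 0.07 in pcDNA (3.99e-05). It was higher in pCTSH#1 than in pcDNA by 0.29 at 0 h (adjusted p = 0.0318) and by 0.34 at 16 h (0.00695), while the 6 h difference of 0.20 did not pass (0.160).

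Among 30 exchange factors for Rac and Cdc42, 11 were higher and 8 lower at 16 h in pCTSH#1, and 11 higher and 7 lower in pcDNA, Tiam1 being among the lower in both. Of all genes, 25.2% were higher and 30.1% lower in pCTSH#1, and 25.8% and 29.5% in pcDNA. The median log2 difference was 0.10 in pCTSH#1 and 0.11 in pcDNA, beside the medians of all genes given above. Fgd6, an exchange factor for Cdc42, rose 12.3-fold in pCTSH#1 and 11.2-fold in pcDNA. Swap70, a protein that binds Rac and actin, rose 7.53-fold in pCTSH#1 and 9.45-fold in pcDNA. Its 0 h level was already higher in pCTSH#1 than in pcDNA (0.48, limma adjusted p = 0.0205). Dock5, which loads Rac, rose 6.01-fold in pCTSH#1 and 4.82-fold in pcDNA, and Dock10, of the same family, rose 2.84-fold and 3.46-fold in the same lines. The Dock5 folds are compressed, because its 0 h level was within 0.5 of background.

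Of 20 GTPase-activating proteins and dissociation inhibitors, 5 were higher and 6 lower at 16 h in pCTSH#1, and 5 higher and 5 lower in pcDNA, beside the same shares of all genes (25.2% and 30.1%, and 25.8% and 29.5%). The median was -0.03 in pCTSH#1 and 0.10 in pcDNA. Arhgap24, which acts on Rac, fell at least 7.86-fold in pCTSH#1 and at least 6.75-fold in pcDNA. Arhgdig, the third dissociation inhibitor of the Arhgdib family, fell 3.39-fold in pCTSH#1 and 3.78-fold in pcDNA. Bcr, which acts on Rac, rose 2.35-fold in pCTSH#1 and 2.72-fold in pcDNA, and Chn2, which also acts on Rac, rose 2.10-fold and 1.42-fold in the same lines.

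Of 30 genes of the WAVE, WASP and Arp2/3 machinery, to which Cyria belongs, 10 were higher and 6 lower at 16 h in pCTSH#1, and 11 higher and 8 lower in pcDNA, with medians of 0.02 in pCTSH#1 and 0.05 in pcDNA. Of all genes, 25.2% were higher and 30.1% lower in pCTSH#1, and 25.8% higher and 29.5% lower in pcDNA. Wasf2, a WAVE subunit, rose 4.62-fold in pCTSH#1 and 3.50-fold in pcDNA, and Baiap2, which couples Rac to WAVE, rose 2.42-fold and 2.28-fold in the same lines. Pak3, a kinase bound by active Rac and Cdc42, fell 4.88-fold in pCTSH#1 and 3.97-fold in pcDNA, and Iqgap2, a scaffold for both GTPases, fell 3.13-fold and 2.69-fold. Of 51 actin-binding genes, 12 were higher and 14 lower at 16 h in pCTSH#1, and 14 higher and 15 lower in pcDNA, with medians of -0.01 in both lines, beside 25.2% higher and 30.1% lower of all genes in pCTSH#1 and 25.8% and 29.5% in pcDNA. Zyx, at focal adhesions, rose 5.18-fold in pCTSH#1 and 4.74-fold in pcDNA, Actn4, a filament crosslinker, 2.59-fold and 2.72-fold, and Vasp, which extends filaments, 2.64-fold and 2.58-fold. Msn, which links filaments to the membrane, rose 2.70-fold and 1.94-fold in the same lines, folds that are compressed by a 0 h level near background.

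The difference of responses at 16 h passed for few of these genes: Elmod1 of 20 GTPase-activating proteins and inhibitors and Cyria of 30 genes of the WAVE machinery. By limma it passed for 0 of 30 exchange factors and 0 of 51 actin-binding genes, where 0.275% of all genes passed. In these lists 5 and 5 had an unadjusted p below 0.05, where 1150 of all 13438 genes did. Trend and robust settings also gave 0 in both lists. Of 51 actin-binding genes 3 differed between the lines at 0 h, where 2.56% of all genes did. They were Cotl1, Vil1 (0.71 ± 0.12, adjusted p = 0.00196) and Enah (0.55 ± 0.07, adjusted p = 0.000227), all higher in pCTSH#1. Vil1 encodes villin and Enah a protein that extends actin filaments; both were named after their values were seen.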

How the data were processed

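Total RNA of 21 INS-1 samples was hybridised to 1 array each. Per the submitters' notes and the values themselves, the authors deposited log2 intensities of probe sets; RMA, affy and limma are named for the authors' processing per the submitters' processing notes, without versions. Values ran from 2.77 to 13.99 and were used as deposited, without a filter on dim values. Of 31137 probe sets, 95 controls were set aside. Probe annotation gave 1 symbol for 19063 of the other 31042, several for 572, and did not list 11407.

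Comparisons used limma 3.58.1 in R 4.3.3 (lmFit and eBayes, 1 model of 7 group means over 21 arrays, two-sided), with Benjamini-Hochberg adjustment over the 31042 probe sets; 0.05 was the threshold. Errors written with ± are SEs of this model unless SD is written. Folds are lower bounds where at least 2 of 3 arrays of 1 group lay at background, and are not given where both did; a group mean within 0.5 of background was called near it. The model takes 1 spread for all groups, yet the SD of the difference between replicate arrays was 0.239 to 0.311 at 16 h and 0.195 to 0.213 at 6 h in pCTSH#1, and 0.237 to 0.281 and 0.194 to 0.216 in pcDNA. Whether the numbered replicates came from different cultures is not in the labels, so the p-values reflect only how far these arrays spread, and no batch is given. The method was tested on simulated data.

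Residuals of equally numbered arrays correlated at -0.0903 to 0.244, and all 3 passed 0.1 in 2 of 21 pairs of groups, so the replicate block served only as an alternative. Others were median centring, cyclic loess, the brighter 50% of probe sets, trend and robust settings, averaging a gene's probe sets, and leaving out each array.

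Members and lists were chosen with earlier results of these data known. Named besides the 8 were the 3 genes most alike to each by Pearson r (symbols that are only locus numbers left out), up to 4 genes per list with the largest 16 h difference among those past the threshold, and fixed paralogs; of these, Arhgdia and Cfl1 had no probe set of a single symbol. Some likeness ranks are left out of the text. The result of 1 gene list is not reported here. Figures come from matplotlib 3.10.9 (Python 3.11.15).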

Additional observations from a re-analysis of the deposited data

Results flagged for a closer look

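Of the 8 genes, 2 had a response at 16 h that differed between the lines by the test of the difference itself, where 0.275% of all genes did. The 8 were chosen with earlier results of these data known, so nothing is read from this count. For Elmod1, pCTSH#1 minus pcDNA was 1.47 ± 0.23 (limma, SE, adjusted p = 0.00663): all 3 pCTSH#1 arrays at 16 h were above all 3 pcDNA arrays, while the 0 h arrays overlapped. For Cyria it was a fitted -2.16 ± 0.24 (adjusted p = 0.000105), with all 3 pCTSH#1 arrays at 16 h below all 3 pcDNA arrays and both 0 h groups at background.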

How the results depend on the processing

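None of the 8 genes changed the direction of a called value under any alternative run. The replicate block left the number of the 8 called as it was in all 13 comparisons, for instance 4 for the lines at 16 h and 2 for the difference of responses at 16 h, so it moved no count. Among the brighter 50% of probe sets, 1 gene passed for the difference of responses at 16 h, because Cyria and Arhgdib were not among the 6 genes tested there. Leaving out 1 array at a time gave 1 to 3 called genes from 0 to 6 h in pCTSH#1 (1 without replicate 2 at 0 h) and 2 to 5 in pcDNA, where 6 passed with all arrays (2 without replicate 1 at 0 h or replicate 3 at 6 h, 3 without replicate 2 at 6 h). It gave 5 to 7 from 0 to 16 h in pCTSH#1 and 7 in pcDNA, 4 from 6 to 16 h in pCTSH#1 and 3 to 5 in pcDNA (3 without replicate 3 at 6 h or at 16 h), 3 to 4 for the lines at 16 h and 2 for the difference of responses at 16 h. Single values of the 8 genes lost 39 calls and gained 1 over all left-out arrays, and lost 9 and gained 4 over the other alternatives. Among other named genes, 5 values turned when all probe sets of a gene were averaged: Baiap2 from 0 to 6 h in pCTSH#1 (-0.139, adjusted p = 0.380), and Cyrib from 0 to 16 h in pCTSH#1 (-0.846) and pcDNA (-0.975) and from 6 to 16 h in pCTSH#1 (-0.571) and pcDNA (-0.764). In that setting Cyrib passed as lower from 0 to 16 h in both lines, and from 6 to 16 h in pcDNA. The causes were not tested. Signal near background limits Cyria and Arhgdib most, and 3 arrays a group limit every value.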

Other observations

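At 16 h several partners of the 8 genes also differed between the lines, by limma with adjusted p in parentheses; these genes were named after their values were seen. Arhgap22, a GTPase-activating protein for Rac, was 1.91-fold lower in pCTSH#1 than in pcDNA (-0.93 ± 0.15, 0.000711). Where 3.32% of all genes were higher and 1.96% lower in pCTSH#1, 1 of 30 exchange factors was higher (Vav2, 0.31, 0.0458) and 1 lower (Elmo2, -0.31, 0.0452). Of 20 GTPase-activating proteins and inhibitors 3 were higher (Elmod1, Chn2 and Arhgdig) and 2 lower (Arhgap22 and Abr, the second by -0.30, 0.0432). Arhgdig was higher in pCTSH#1 at 0 h too (0.31, 0.0380). Of 30 genes of the WAVE, WASP and Arp2/3 machinery 26 did not pass, 1 was lower (Cyria) and 3 were higher: Arpc1a by 0.36 ± 0.07 (0.00257), Arpc1b by 0.38 ± 0.07 (0.00433) and Cyfip2, the Rac-binding subunit of WAVE, by 0.45 ± 0.09 (0.00864). Of 51 actin-binding genes the 5 that passed were higher (Coro1a, Cotl1, Vil1, Ezr and Enah), and Cotl1, Vil1 and Enah were higher at 0 h too. Ezr, which links actin to the membrane, was higher by 0.45 ± 0.08 (0.00337), and Vil1 by 0.76 ± 0.12 (0.000714). On the arrays where these differed, the summed linear intensity of the 9 beta-cell markers was 45853 to 47903 in pCTSH#1 and 41018 to 43356 in pcDNA at 16 h, and that of the 18 leukocyte markers was 455 to 503 in pCTSH#1 and 455 to 483 in pcDNA. Their part in the differences was not tested.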
